A study of Mus musculus with 2 samples.

Results

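The 6 STAT genes described here are Stat2, Stat3, Stat4, Stat5a, Stat5b and Stat6, chosen by name as the rows of the deposited tables that carry these symbols, and they are 6 of the 23343 genes measured. Their transcripts were measured by stranded polyA RNA-seq in eosinophils, the granulocytes of type 2 immunity. The cells were sorted as CCR3+ SiglecF+ from bone marrow pooled over naïve C57BL6J mice. There were 2 independent sorts, with 1 library each, called sort 1 and sort 2 after their titles, and the labels name no other condition. The p-values given below therefore compare 2 libraries of 1 group and not treatments. Neither the age of the mice nor the size of a pool is stated in the labels.

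STAT proteins are transcription factors that wait in the cytoplasm for a signal from a cytokine receptor. A JAK kinase bound to the receptor phosphorylates the receptor and then the STAT on a tyrosine, after which STAT proteins pair through their SH2 domains and enter the nucleus. In eosinophils, STAT5A and STAT5B act below the receptors for interleukin-5, interleukin-3 and GM-CSF, and STAT6 below those for interleukin-4 and interleukin-13. STAT3 serves interleukin-6, interleukin-10 and G-CSF, STAT4 serves interleukin-12, and STAT2 joins IRF9 in the response to type I interferon. Activity depends on phosphorylation, which RNA levels do not show.

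The libraries held 10087743 reads in sort 1 and 9264150 in sort 2. All 7 genes of the eosinophil marker list reached 1 RPKM in each sort, with a summed level of 2565 RPKM in sort 1 and 3272 in sort 2. All 8 neutrophil markers were too, with sums of 2066 and 1716 RPKM in sort 1 and sort 2. The sorts also differed in the female-specific RNA Xist, which had 47487 reads in sort 1 against 5 in sort 2. Female cells were thus present in sort 1 and almost absent from sort 2, so sex cannot be told apart from sort. The ribosomal RNA precursor Rn45s took 9.07% of the reads in sort 1 and 0.963% in sort 2. In these bulk samples, fewer cells of a type and less RNA per cell cannot be told apart.

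The 6 genes lie on 3 chromosomes, at these positions of the deposited tables on mm10. Stat5b (chromosome 11, 100780731 to 100850585, minus strand), Stat5a (100859351 to 100885169, plus strand) and Stat3 (100886810 to 100939511, minus strand) form a cluster of 158781 bases. The 5′ ends of Stat5b and Stat5a face each other across 8765 bases, and the 3′ ends of Stat5a and Stat3 are 1640 bases apart. Stat6 (chromosome 10, 127642986 to 127660987) and Stat2 (128270576 to 128292849) are both on the plus strand, with 609588 bases between them. Stat4 lies on chromosome 1, from 52008244 to 52107184 on the plus strand.

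Stat5a and Stat5b are each listed with 2 transcript starts, and the sequences at these starts are shown because the reads of Stat5b were divided between them. The windows are RefSeq promoter sequences on GRCm38.p6, running from 250 bases before the start site to 50 after it, on the strand of the gene. The start sites of these windows lie within 4 bases of the starts in the deposited tables, while the RefSeq window of the upstream Stat5a start lies 305 bases off and is not shown. Capitals mark exact runs of at least 12 bases that occur in both of the first 2 windows.

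Stat5b, downstream start, chr11:100822521-100822820, minus strand: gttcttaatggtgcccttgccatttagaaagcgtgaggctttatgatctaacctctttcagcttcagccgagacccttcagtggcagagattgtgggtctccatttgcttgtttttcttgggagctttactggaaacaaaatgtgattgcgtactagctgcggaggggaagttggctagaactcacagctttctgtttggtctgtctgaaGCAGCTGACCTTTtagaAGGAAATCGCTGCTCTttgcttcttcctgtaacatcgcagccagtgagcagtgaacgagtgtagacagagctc
Stat5a, downstream start, chr11:100860234-100860533, plus strand: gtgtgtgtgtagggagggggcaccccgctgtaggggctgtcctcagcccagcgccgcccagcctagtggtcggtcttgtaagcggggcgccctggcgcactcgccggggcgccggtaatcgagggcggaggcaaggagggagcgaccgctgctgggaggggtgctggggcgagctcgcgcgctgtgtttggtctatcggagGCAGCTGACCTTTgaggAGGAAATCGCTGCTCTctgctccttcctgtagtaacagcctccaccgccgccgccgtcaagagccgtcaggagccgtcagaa
Stat5b, upstream start, chr11:100850532-100850831, minus strand: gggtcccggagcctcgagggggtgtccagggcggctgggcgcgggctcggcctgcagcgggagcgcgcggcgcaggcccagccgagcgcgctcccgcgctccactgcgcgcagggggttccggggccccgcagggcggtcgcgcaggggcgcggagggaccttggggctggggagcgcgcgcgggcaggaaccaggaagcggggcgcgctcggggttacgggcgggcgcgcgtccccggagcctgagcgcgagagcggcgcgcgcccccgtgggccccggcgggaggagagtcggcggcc

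The first 2 windows held the runs GCAGCTGACCTTT and AGGAAATCGCTGCTCT in the same order, just before the start site. Their best local alignment covered 102 columns, of which 82, or 80.4%, were identical. It spanned positions -94 to 7 of Stat5b and -100 to -2 of Stat5a, counted from the start site as 0. Its alignment score was 98, and the next best of the 36 pairs among the 9 windows of the STAT genes scored 29. The windows differed in base composition, with a GC content of 47.3% at the downstream start of Stat5b, 67.7% at that of Stat5a and 82.7% at the upstream start of Stat5b. The median of all 32851 windows was 52.7%.

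Stat6 had the highest level of the 6 genes, and the levels spanned 8.65-fold in sort 1 and 11.7-fold in sort 2. Here and below, RPKM is the authors' value for reads scaled by transcript length and by depth, summed over the rows of a gene, and means carry the SD of 2 sorts. All 6 genes reached the minimum of 1 RPKM in each sort, as did 30.2% of all genes. Their median was 4.99 RPKM in sort 1 and 4.72 in sort 2, against medians of 4.07 and 3.97 RPKM over the 7048 genes that passed this minimum.

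Stat6, the STAT of interleukin-4 and interleukin-13, had 20.0 RPKM in sort 1 and 20.2 in sort 2. These are 3082 and 3121 reads, and the mean of 20.1 ± 0.139 RPKM (SD, n = 2) was above 97.3% of all genes and above 91.1% of those that passed the minimum. The sorts lay close together for this gene. Stat6 held 42.3% of the summed RPKM of the 6 genes in sort 1 and 45.1% in sort 2. Its 3′ end overlaps that of Nab2, a gene on the other strand, by 70 bases, and Nab2 had 88 and 56 reads in sort 1 and sort 2, few beside those of Stat6.

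Stat3 came next, with 12.7 RPKM in sort 1 and 11.0 in sort 2, from 2276 and 1979 reads. Its mean was 11.8 ± 1.19 RPKM (SD, n = 2), above 82.8% of the genes that passed the minimum. It held 26.7% of the summed RPKM of the 6 genes in sort 1 and 24.5% in sort 2. The tables give Stat3 as 1 row for 3 RefSeq transcripts with the same ends, so its splice forms were not separated.

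Stat2, the partner of IRF9 in interferon signalling, had 5.64 RPKM in sort 1 and 5.25 in sort 2, from 1003 and 936 reads. Stat5b had 4.35 RPKM in sort 1 and 4.20 in sort 2, from 914 and 887 reads. Both sat near the middle of the genes that passed the minimum, Stat2 above 61.0% and Stat5b above 52.4% of them. Their means were 5.44 ± 0.276 RPKM for Stat2 and 4.27 ± 0.108 RPKM for Stat5b (SD, n = 2).

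Stat4 and Stat5a were the lowest. Stat4 had 2.38 RPKM in sort 1 and 2.46 in sort 2, from 287 and 298 reads. Stat5a had 2.31 RPKM in sort 1 and 1.72 in sort 2, from 363 and 271 reads, so the sorts were further apart for this gene than for Stat4. Their means were 2.42 ± 0.0599 RPKM for Stat4 and 2.02 ± 0.416 RPKM for Stat5a (SD, n = 2), above 29.4% and 21.5% of the genes that passed the minimum. As a percentage of the mean RPKM, under the authors' scaling, the SD was 20.6% for Stat5a, 10.1% for Stat3 and at most 5.07% for the other members.

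**Figure D1:**
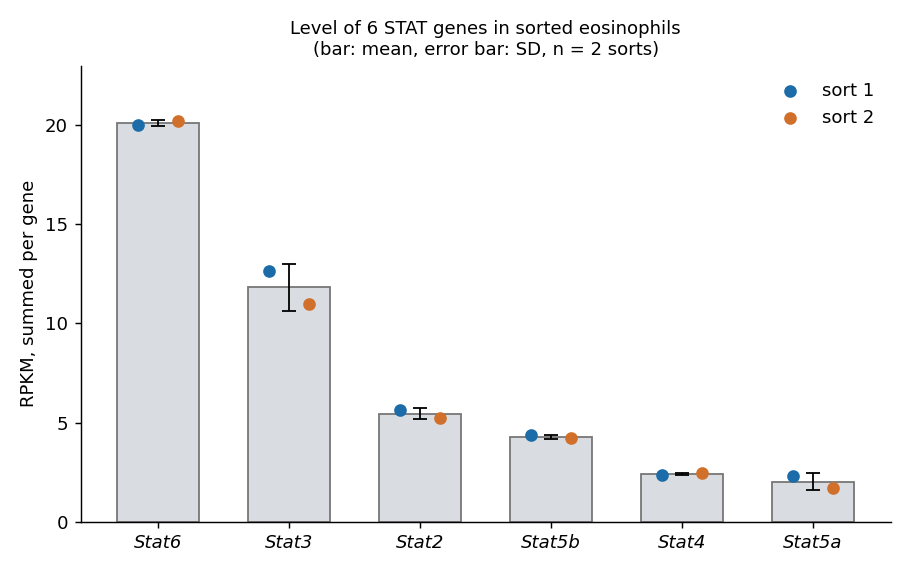
RPKM of the 6 STAT genes, in order of mean level. Bars are means and error bars the SD of 2 sorts, with a point for each sort. Stat6 stood at 20.1 RPKM, and Stat4 and Stat5a at 2.42 and 2.02.

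The order of levels was the same in both libraries, and 4 of the 5 pairs of neighbours differed by more than their spread. On the log2(RPKM + 1) scale the level of Stat6 exceeded that of Stat3 by 0.72 ± 0.14, and Stat3 exceeded Stat2 by 0.99 ± 0.07 (SD, n = 2). Stat2 exceeded Stat5b by 0.29 ± 0.03, and Stat5b exceeded Stat4 by 0.62 ± 0.05. Stat4 and Stat5a did not differ beyond their spread, with a difference of 0.03 in sort 1 and 0.35 in sort 2, and a mean of 0.19 ± 0.22. No test was made of these differences, and an exact sign test on 2 libraries could reach a two-sided p of 0.5 at the lowest.

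The paralogues Stat5b and Stat5a were unequal in level. Stat5b was 1.88-fold above Stat5a in RPKM in sort 1 and 2.44-fold in sort 2, a difference of 0.81 ± 0.17 on the log2(RPKM + 1) scale (SD, n = 2). Together they reached 6.66 RPKM in sort 1 and 5.92 in sort 2, above Stat2 but below Stat3. Parts of these transcripts are identical, with 11.1% of the 50-base words of Stat5b and 15.6% of those of Stat5a shared and a longest common run of 324 bases. No source used here says how reads that match both were counted, so the split between Stat5a and Stat5b is uncertain. No other pair of the 6 genes shared a 50-base word, and their longest common run was 23 bases, between Stat3 and Stat2.

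Most Stat5b reads were assigned to the downstream of its starts, 28015 bases inside the gene from the upstream start. The downstream transcript took 754 reads of sort 1 and 774 of sort 2, which is 82.5% of the Stat5b reads (95% Wilson interval 79.9 to 84.8) and 87.3% (84.9 to 89.3). The upstream transcript had 160 and 113 reads in sort 1 and sort 2. In RPKM the downstream transcript stood at 3.59 ± 0.0590 and the upstream at 0.687 ± 0.167 (SD, n = 2).

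The upstream share of Stat5b was larger in sort 1, at 17.5%, than in sort 2, at 12.7%, with Fisher's exact two-sided p = 0.0057 on the reads of the 2 libraries. The transcripts are told apart by their own 5′ ends, 324 bases with a GC content of 80.2% for the upstream one and 475 bases with 44.6% for the downstream one. Ratios of sort 1 to sort 2 rose with GC content across genes, as given below, and the part of GC content in this shift was not tested. Counts for single transcripts may also be estimates, because most of the sequence is common to both.

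All Stat5a reads, 363 in sort 1 and 271 in sort 2, stood in the row of the upstream start at 100859351, and the row of the downstream start at 100860484 was listed at 0. Every base of the downstream transcript, its 5′ end included, lies in a 50-base word that also occurs in the upstream transcript. Its own words are only those that span a point where shared stretches meet. Such words exist, because the transcripts together hold 3888 different words, more than the 3888 bases of the upstream one allow. How reads on them were assigned is not stated. The value of 0 therefore does not show that this start was unused. It is this downstream window of Stat5a that aligned with the most-read start of Stat5b.

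**Figure D2:**
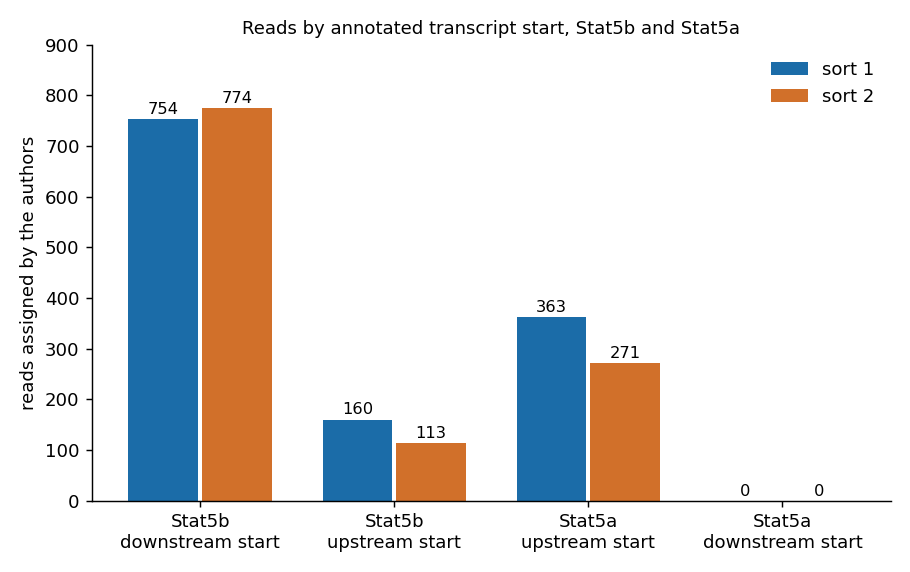
Reads the authors assigned to each annotated transcript start of Stat5b and Stat5a, with bars for sort 1 and sort 2. The downstream start of Stat5b holds 754 and 774 reads, and the downstream start of Stat5a is listed at 0.

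Short motifs read by STAT proteins were looked for in the same 9 windows on both strands. The GAS motif TTCNNNGAA occurred in 0 of the 9, beside 8.30% of all windows, and TTCNNNNGAA, the spacing that STAT6 prefers, in 1, that of Stat2, beside 6.95%. The core of the interferon response element, GAAANNGAAA, occurred in a window of Stat2 and a window of Stat4, beside 3.44% of all windows. A match is a description of these letters only.

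Between the sorts, none of the 6 genes changed by 2-fold or more. A gene was called at a fold of at least 2 and an adjusted p under 0.05 in an exact binomial test on the reads of the 2 libraries, with TMM scaling and Benjamini-Hochberg adjustment. This rule called 0 of the 6 members and 7.95% of the 12347 genes tested. At any fold 3 of 6 passed the adjusted p, beside 44.4% of genes tested, and the same number had an unadjusted p under 0.05, beside 50.5%. With edgeR's exact test and the spread estimated from both libraries, 0 of 6 had an unadjusted p under 0.05, beside 6.16% of genes tested. By the adjusted p 0 of 6 passed, beside 0.267%. That spread includes the difference between the sorts that is under test, so this result does not show that the STAT genes were unchanged.

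Stat5a had the largest ratio, 1.28-fold higher in sort 1 (log2 0.35, 95% interval 0.12 to 0.59), with an adjusted p of 0.00688 in the exact binomial test. Stat3 was 1.10-fold higher in sort 1 (log2 0.13, interval 0.05 to 0.22), with an adjusted p of 0.00804. These are the members that passed the adjusted p as higher in sort 1, as did 21.6% of genes tested. Stat6 was lower in sort 1, with a log2 ratio of -0.09 (interval -0.16 to -0.01) and an adjusted p of 0.0436, and 22.8% of genes tested passed in that direction.

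Stat2, Stat5b and Stat4 had log2 ratios of sort 1 to sort 2 of 0.03, -0.02 and -0.12, and their intervals included 0. The widest of these intervals, that of Stat4, ran from -0.36 to 0.12, which is the precision that its 287 and 298 reads allow. The median log2 ratio of the 6 genes was 0.00350, and that of all genes tested was 0.000307.

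The ratios of sort 1 to sort 2 followed the GC content of the transcripts, with a Spearman correlation of 0.54 across 8680 genes with at least 100 reads, which share these 2 libraries. The STAT transcripts had a GC content from 45.4% for Stat4 to 55.8% for Stat5a. After a fit on GC content was subtracted, the log2 ratio was 0.12 for Stat5a, 0.02 for Stat3 and -0.23 for Stat6. It was -0.19 for Stat5b, -0.04 for Stat2 and 0.05 for Stat4, with the sign turned for the last pair. The neutrophil marker sum was higher in sort 1, as were 5 of its 8 genes, with Mpo, Elane and S100a8 higher in sort 2. The eosinophil marker sum was higher in sort 2, as were 6 of its 7 genes in RPKM. The part of these cells in the STAT ratios was not tested.

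**Figure D3:**
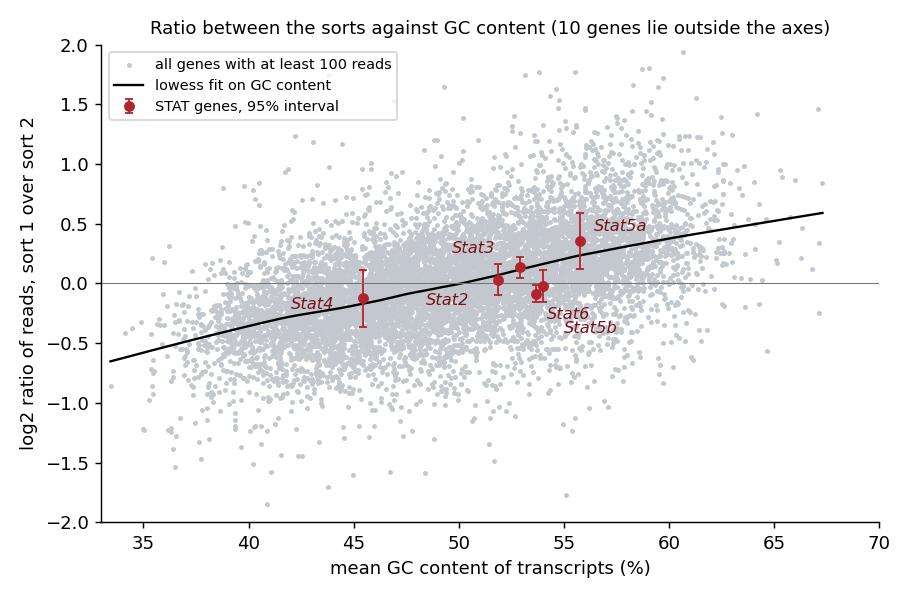
Log2 ratio of reads in sort 1 over sort 2 against the mean GC content of the transcripts of a gene, for 8680 genes in grey, 10 of them outside the axes, with a lowess fit in black. Red points are the STAT genes with 95% intervals for counting error. Stat5a and Stat3 lie near the fit, and Stat6 and Stat5b lie below it.

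The genes that act with the STATs were taken as 15 lists of receptors, kinases, inhibitors, coactivators and target genes, holding 112 genes. Of these, 55 reached 1 RPKM in each sort, beside 30.2% of all genes, a share that also stands beside each list count below. The median over all 112 was 1.42 RPKM in sort 1 and 1.05 in sort 2. The kinases that phosphorylate STATs were led by Jak1 at 31.9 ± 0.840 RPKM and Jak2, the kinase of the interleukin-5 and GM-CSF receptors, at 9.15 ± 0.223 (SD, n = 2). Tyk2, which serves interferon and interleukin-12 receptors, had 2.86 ± 0.488 RPKM, and Jak3, which binds the common gamma chain, had 0.451 ± 0.0438.

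Stat5a and Stat5b stood below the receptors for interleukin-5 and GM-CSF in RPKM. Csf2ra, the GM-CSF receptor alpha chain, had 73.7 ± 14.8 RPKM, Il5ra 52.9 ± 13.6 and the shared beta chain Csf2rb 40.0 ± 6.76 (SD, n = 2). Csf2rb2, a homologue of Csf2rb in the same list of STAT5 receptors, had 27.1 ± 2.94. Il3ra, the interleukin-3 receptor alpha chain, had 0.363 ± 0.163 RPKM, from 27 and 14 reads, below both Stat5 genes. Of the 15 receptors in this list 6 passed the minimum. The leading genes of the STAT5 target list were Pim1, a survival kinase, at 8.72 ± 3.51 RPKM, the cytokine Osm at 4.07 ± 0.922, the repressor Bcl6 at 2.94 ± 0.149 and Bcl2 at 2.09 ± 0.338, and 6 of its 13 genes passed the minimum.

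For Stat6 the order was the other way. Stat6 had 20.1 RPKM, whereas Il4ra, the receptor chain for interleukin-4 and interleukin-13, had 0.616 RPKM in sort 1 and 0.464 in sort 2, from 127 and 96 reads. Il13ra1 had 0.177 ± 0.0524 RPKM, and the common gamma chain Il2rg had 6.59 ± 0.261 (SD, n = 2). In the list of genes that STAT6 can induce 3 of 14 passed the minimum. They were Alox15, the 12/15-lipoxygenase, at 758 ± 35.4 RPKM, the chitinase-like Chi3l3 at 43.2 ± 2.46 and the mannose receptor Mrc1 at 1.24 ± 0.143, followed by the chemokine Ccl17 at 0.576 ± 0.202.

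Stat3 had a level above each receptor of its own list. Csf3r, the G-CSF receptor, had 3.66 ± 0.891 RPKM, Il10rb 2.81 ± 0.288, Il6ra 0.609 ± 0.00634 and Il21r 0.303 ± 0.0663 (SD, n = 2), and 2 of 12 passed the minimum. Of the 11 genes in the STAT3 target list 7 did, with the survival protein Mcl1 at 93.9 ± 12.5 RPKM, Fos at 16.8 ± 3.32 and Junb at 8.02 ± 3.14 at the head beside Pim1.

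The partners of Stat2 were all present. Ifnar2 had 29.1 ± 2.01 RPKM, Ifnar1 3.66 ± 0.439 and Irf9, with which STAT2 binds DNA, 8.20 ± 0.132 (SD, n = 2), beside 5.44 RPKM for Stat2. Of 15 interferon-stimulated genes 7 passed the minimum, led by Oasl2 at 7.55 ± 0.753 RPKM, Oas3 at 3.97 ± 0.850, Irf7 at 3.37 ± 1.39 and Rsad2 at 2.52 ± 0.0138.

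The chains of the interleukin-12 receptor, which STAT4 serves, were unequal in level. Il12rb2 had 5.73 RPKM in sort 1 and 8.25 in sort 2, while Il12rb1 had 10 and 6 reads and Il23r 8 and 0 reads in sort 1 and sort 2. STAT4 is best known from T and NK cells, and 1 of 11 markers of those cells passed the minimum, Nkg7 at 9.81 RPKM in sort 1 and 11.0 in sort 2. The summed level of these markers was 11.5 RPKM in sort 1 and 11.8 in sort 2. After Nkg7 the highest of them were Cd4 with 57 and 27 reads in sort 1 and sort 2, Cd3d with 23 and 12 and Gzma with 11 and 3, and Tbx21 was at 0 in both sorts. Of the 11 markers 8 had a higher RPKM in sort 1 and 2 in sort 2. Their part in the level of Stat4 was not tested. Of the 8 genes in the STAT4 target list 5 passed, led by Il18rap at 13.1 ± 1.99 RPKM, Il12rb2, the protease Furin at 5.67 ± 2.52 and Hlx at 2.90 ± 0.614 (SD, n = 2).

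Inhibitors of STAT signalling were present at unlike levels. Of the 8 SOCS inhibitors, which block JAK or receptor sites, 2 passed the minimum that 30.2% of all genes passed, namely Socs4 at 4.53 ± 0.923 RPKM and Cish at 1.99 ± 1.11, and next were Socs7 at 0.756 ± 0.0433 and Socs5 at 0.435 ± 0.0983 (SD, n = 2). All 4 PIAS proteins, which bind STATs in the nucleus, passed, with Pias1 at 7.45 ± 1.26 RPKM, Pias3 at 2.16 ± 0.610, Pias2 at 2.02 ± 0.435 and Pias4 at 1.44 ± 0.410. The phosphatases were led by Ptprc at 107 ± 4.18 RPKM, Ptpn6, or SHP-1, at 23.3 ± 6.47, Ptpn1 at 12.3 ± 0.478 and Ptpn2, which acts on nuclear STATs, at 5.81 ± 1.18, and Dusp3 had 0.0763 ± 0.0250. The coactivators, all 5 of which passed, were led by Ep300 at 30.0 ± 4.91 RPKM, Crebbp at 19.1 ± 1.08 and Ncoa3 at 12.6 ± 0.431, with Nmi at 4.36 ± 0.627.

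**Figure D4:**
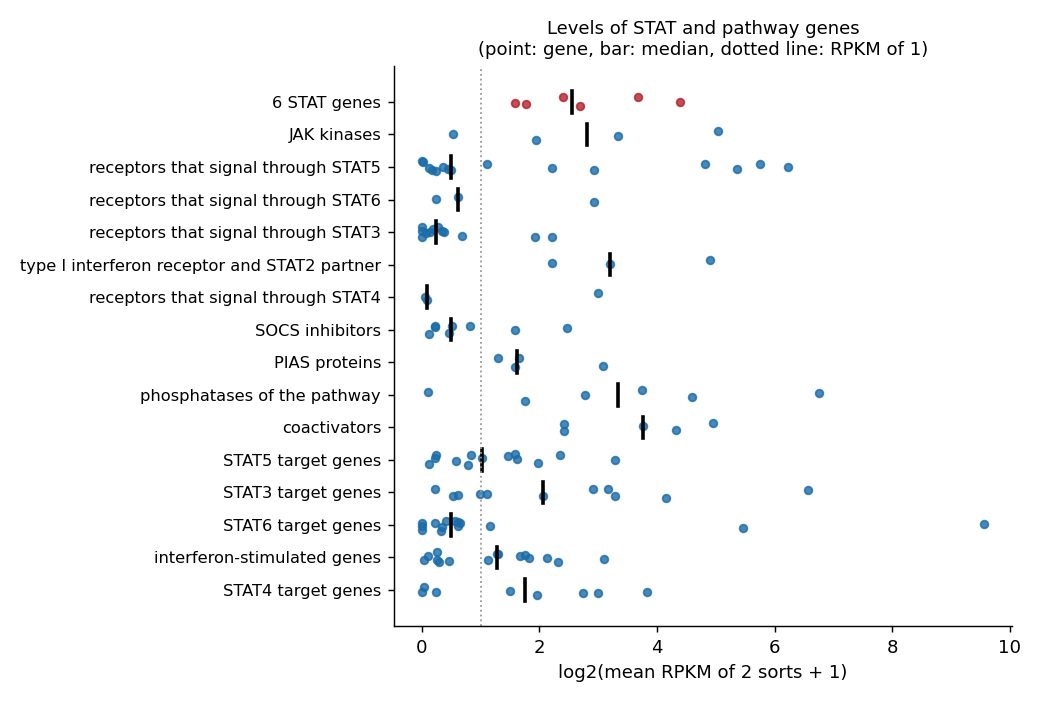
Mean RPKM of 2 sorts, on the log2(RPKM + 1) scale, for the 6 STAT genes in red and the members of each pathway list in blue. Short black bars are medians and the dotted line is an RPKM of 1. The receptors of STAT5 reach higher than any STAT gene, and those of STAT6, STAT3 and STAT4 lie below the STAT that they serve, apart from Il12rb2 for Stat4.

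Among the 100 pathway genes tested, 6 were called higher in sort 1, beside 4.90% of all genes tested, and 3 higher in sort 2, beside 3.05%, by the exact binomial test. Higher in sort 1 were Cish with 243 and 106 reads in sort 1 and sort 2, Socs2 with 14 and 0, Fcer2a with 34 and 9, Arg1 with 23 and 7, Isg15 with 52 and 21 and Mx1 with 43 and 7. Higher in sort 2 were Lifr with 14 reads in sort 1 and 66 in sort 2, Bcl3 with 18 and 48 and Il11ra1 with 11 and 26. With edgeR's exact test, which here counts the difference between the sorts as spread, their adjusted p ran from 0.09998 to 0.916, and 0 pathway genes passed. Genes named here beyond the rule for named genes were chosen because they were called.

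The pathway genes nearest in level to each STAT gene were found by the larger of the 2 within-sort differences in log2(RPKM + 1), over 2 sorts and 112 genes. Nearest to Stat6 were Crebbp and Fos, with differences of 0.12 and 0.44. Nearest to Stat3 were Ptpn1 and Ncoa3 with 0.12 and 0.16, and to Stat2 Il2rg and Myc with 0.24 and 0.26. Nearest to Stat5b were Ncoa1 and Nmi with 0.13 and 0.16, to Stat4 Oas2 and Rsad2 with 0.03 and 0.06, and to Stat5a Pias3 and Id1 with 0.12 and 0.15. With 2 libraries of 1 group this is a likeness of level and not of pattern.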

How the data were processed

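The cells, the sorts and the library type are given above. Reads were aligned with STAR 2.4.0c to mm10, per the submitters' processing notes, but neither the program that counted reads nor its use of strand is named there. Each of the 26099 rows that the authors deposited holds a whole-number read count and an RPKM value for RefSeq transcripts that start and end together. Both were summed per gene symbol. The count, the RPKM and the transcript length implied that the authors scaled to a read total larger than the sum of the counts, so the deposited RPKM values are low by a similar factor in both.

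Counts were tested with an exact two-sided binomial test (scipy 1.17.1) on genes with at least 10 reads in all, scaled by TMM (edgeR 4.0.16), with a prior of 2 reads in ratios. The quasi-likelihood test of edgeR needs replicates within the groups compared, and each sort has 1 library. The binomial test was checked on simulated reads with known changes. Those reads held counting error alone, so the check cannot show how the test behaves with further spread between libraries. DESeq2 1.42.0 gave size factors. GC content came from GENCODE M21 transcripts matched by RefSeq accession, promoter windows from RefSeq, and alignments from Biopython 1.88. Of the STAT genes, 6 of 6 matched.

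The members and lists were chosen with earlier results of these data known. Named genes are the members, the 4 highest of each list, members under 1 RPKM in lists of at most 6 genes, and the 2 genes nearest to each member. Other genes, such as called pathway genes, cell markers, Xist, Rn45s and Nab2, were named after their values were seen. Intervals and floors hold for counting error alone, as the labels mention no molecular identifiers. Nothing in the labels ties the sorts to separate mice beyond the word independent. The Xist reads, 47487 in sort 1 and 5 in sort 2, show that the pools differed in sex and so were not the same mice. The spread between the sorts includes this difference and may also be partly technical.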

Additional observations from a re-analysis of the deposited data

How the results depend on the processing

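All 6 STAT genes stayed at or above the minimum at 0.5 RPKM and at a CPM of 1, and without either sort, whereas at 2 RPKM 5 did, Stat5a being below. Of 40 alternatives for the main results, 36 kept the call, stayed within 1 SD or gave a count within 1.5 times the main one. For differences between neighbours, leaving out 1 of 2 sorts stays within 1 SD by arithmetic. Those alternatives are among the 36 and do not measure stability. With no minimum fold, 3 STAT genes and 5481 of all genes differed between the sorts, in place of 0 and 981, and edgeR's exact test called 33 of all genes. The number of pathway genes detected was 89 at a CPM of at least 1, in place of 55. Without either sort the difference of Stat4 and Stat5a ran from 0.03 to 0.35 on the log2(RPKM + 1) scale. The log2 ratio of Stat2 turned to -0.0231 with total counts and to -0.0388 after the GC fit, and that of Stat4 to 0.0493 after the GC fit, and the cause was not tested. Rescaled to the sum of the counts, the level of Stat6 was 84.3 RPKM and that of Stat5a 8.40. No paired analysis was possible because there is 1 group. Depth limits Stat4 and Stat5a most, the members with the fewest reads.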
